A study of Solanum lycopersicum var. cerasiforme with 6 samples.

Results

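The 6 genes described here form a route by which tomato fruit oxidise fatty acids to aroma volatiles, together with the lipoxygenases that lie beside it. They are the lipoxygenase genes TomloxA, TomloxB, TomloxC and TomloxD, the hydroperoxide lyase gene HPL and the alcohol dehydrogenase gene ADH2. They were chosen by their gene identifiers, with earlier results of these data known. Each was listed once in the authors' table, so that 6 of 31571 entries are members. The RefSeq names of assembly SLM_r2.1 include all 6, each on the chromosome that the authors' table gives for its identifier, although the identifiers themselves matched 0 RefSeq entries.

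Pericarp RNA of cherry tomato fruits (Solanum lycopersicum var. cerasiforme, cultivar 'XinTaiyang') was sequenced in 3 groups. All fruits were harvested at the mature green stage, received a 25 μL injection and were kept in the dark at 20 °C and 90% relative humidity until day 9, which the study places near the breaker stage. CK fruits received distilled water, ABA fruits abscisic acid at 10 mM and NDGA fruits nordihydroguaiaretic acid at 1 mM. Each group had 2 libraries, each made from pooled RNA of 10 fruits and each from a separate harvest batch, with every batch present in every group. The authors' values are FPKM (fragment counts scaled to transcript length and library size) averaged over both libraries, so there is 1 value per gene and group and no error. No difference below could be set against the spread between replicates, no test was possible on the deposited values, and the number of fragments behind each value is unknown. Entries whose mean FPKM over CK, ABA and NDGA was 1 or more are called expressed. Shares, percentiles and medians over all expressed entries leave out entries listed at 0 in either group of the comparison. Of 22689 expressed entries, 21442 remain for ABA against CK and 21590 for NDGA against CK.

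Lipoxygenases add oxygen to linoleic and linolenic acid. The enzymes are named for the carbon that they oxidise: 9-lipoxygenases (TomloxA and TomloxB) and 13-lipoxygenases (TomloxC and TomloxD). A 13-hydroperoxide can be cleaved by hydroperoxide lyase to a C6 aldehyde such as hexanal or hexenal, the green and fresh notes of tomato aroma, and ADH2 reduces such aldehydes to the C6 alcohols. TomloxC is the isoform known to feed these volatiles in fruit, while TomloxD is known from wounded leaves, where its product enters jasmonate synthesis. NDGA was used in the study to lower endogenous ABA, and it is also a general inhibitor of lipoxygenase enzymes. The values here are transcript levels and say nothing of enzyme activity.

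Before the genes are described, the labelled tissue was set against marker genes. Of 6 ripening pericarp markers, E4, phytoene synthase 1, RIN and expansin 1 had between 397 and 11052 FPKM in every group. E4 (7288, 11052 and 2149 FPKM in CK, ABA and NDGA fruits) had the order of groups that TomloxC, HPL and ADH2 have below. So did phytoene synthase 1 (2795, 5451 and 1339) and RIN (672, 1203 and 397). Expansin 1 did not, with 730, 720 and 652 FPKM in CK, ABA and NDGA fruits. What part the order of E4 has in the values of TomloxC, HPL and ADH2 was not tested. The locus that holds RIN also holds a further gene. Polygalacturonase 2a and E8 stood at 10575 and 11339 FPKM in CK and at 2309 and 7166 with NDGA, but were listed at 0 with ABA. As listed, they too lacked the order of E4. The study itself reports E8 as significantly up-regulated by ABA, so the 0 listed for E8 conflicts with that report. Whether such a 0 means absence cannot be told from the deposited values. Such zeros occurred among abundant genes in every group. Entries listed at 0 that reached at least 1000 FPKM in another group numbered 120 in ABA, 116 in CK and 76 in NDGA. None of the 6 members was listed at 0. According to the study's methods the seeds were discarded. Nevertheless, 19 entries annotated as oleosin, cruciferin or seed storage albumin had summed levels of 5643 FPKM in water-injected fruits, 3125 in ABA fruits and 12764.5 in NDGA fruits. This set was chosen after the values were seen. The planned list of 101 seed entries, some with the opposite direction, is described with TomloxA below. In bulk RNA of this kind, fewer cells of a type and less RNA per cell cannot be told apart.

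TomloxC, HPL and ADH2, the genes of the C6 route, were all higher with ABA than in CK and all lower with NDGA. None of these differences from CK reached 2-fold. TomloxA had the opposite order, lowest with ABA and highest with NDGA. TomloxB, a 9-lipoxygenase outside that route, had the same order of groups as TomloxC, HPL and ADH2. It was more than 2-fold lower with NDGA than in CK. TomloxD, the least abundant of the 6, was more than 2-fold higher with NDGA only.

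**Figure D1:**
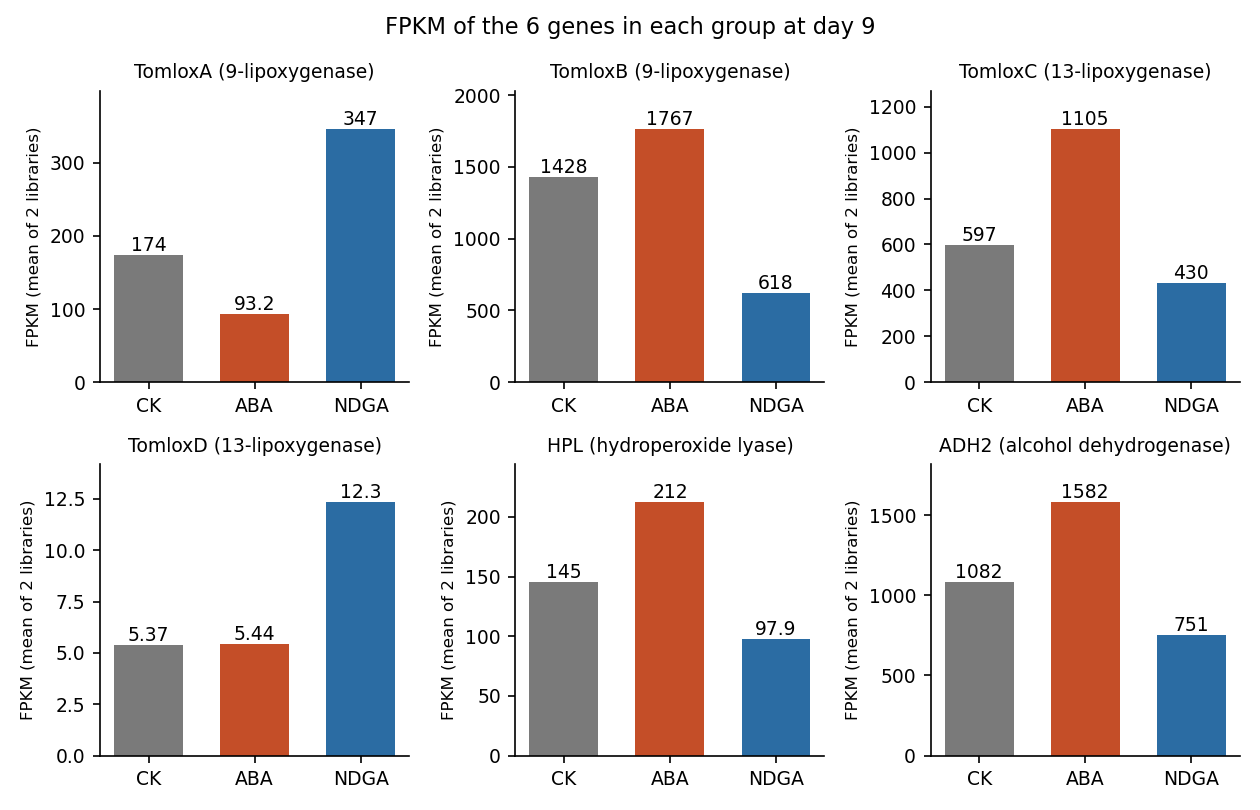
FPKM (vertical axes, each starting at 0 with its own range) of the 6 genes in CK, ABA and NDGA fruits. Each bar is the authors' mean of 2 libraries and carries no error. TomloxB, TomloxC, HPL and ADH2 are highest with ABA and lowest with NDGA, whereas TomloxA runs from 93.2 with ABA to 347 with NDGA.

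TomloxC (Solyc01g006540.2, 13-lipoxygenase) lies on chromosome 1 from 1113717 to 1123928 in SL2.40, the genome build of all positions given here. Its levels were 597, 1105 and 430 FPKM in CK, ABA and NDGA fruits. ABA fruits were thus 1.85-fold above CK, a log2 fold change of 0.89. With NDGA the log2 fold change was −0.47, or 1.39-fold lower. Among all expressed entries, 7.98% had a larger log2 fold change with ABA and 11.3% a lower one with NDGA.

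HPL (Solyc07g049690.2), whose product cleaves 13-hydroperoxides, is on chromosome 7 from 57369624 to 57376802. It had 145, 212 and 97.9 FPKM in CK, ABA and NDGA fruits. The log2 fold changes were 0.55 with ABA and −0.57 with NDGA, with 15.0% of expressed entries higher in the first comparison and 8.79% lower in the second. The order of the groups was that of TomloxC, with a smaller distance between ABA and CK.

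ADH2 (Solyc06g059740.2), the alcohol dehydrogenase of ripening fruit, is on chromosome 6 from 33996410 to 33998846. Its levels were 1082, 1582 and 751 FPKM in CK, ABA and NDGA fruits. Log2 fold changes were 0.55 and −0.53, close to those of HPL. The ADH2 level exceeded the HPL level 7.43-fold, 7.44-fold and 7.67-fold in the respective groups, so both genes kept nearly the same proportion in the 3 groups. The ratio of TomloxC to HPL varied more, at 4.11 in CK, 5.20 in ABA and 4.40 in NDGA fruits.

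TomloxB (Solyc01g099190.2, 9-lipoxygenase), on chromosome 1 from 81251678 to 81256014, was the most abundant lipoxygenase in every group. The gene is known as a fruit-expressed isoform. It had 1428, 1767 and 618 FPKM in CK, ABA and NDGA fruits. The difference from CK was 0.31 on the log2 scale with ABA, between the 25th and 75th percentiles of all expressed entries, −0.36 and 0.34. With NDGA the log2 fold change was −1.21, or 2.31-fold lower, and 3.09% of expressed entries had a lower value.

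TomloxA (Solyc08g014000.2, 9-lipoxygenase) is on chromosome 8 from 3416212 to 3422793, and its transcript is known from germinating seedlings as well as from fruit. Its levels were 174, 93.2 and 347 FPKM in CK, ABA and NDGA fruits. The log2 fold changes were −0.90 with ABA, with 11.9% of expressed entries lower, and 1.00 with NDGA, with 8.83% higher. The NDGA level was 1.997 times that of CK, just inside the 2-fold bound, and 3.72 times that of ABA fruits. TomloxA was the only one of the 4 lipoxygenase members, and of all 6 genes, that was lower with ABA than in CK on the deposited scale. After rescaling to a median log2 ratio of 0, TomloxD was also just below CK, at −0.01.

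The summed level of seed transcripts had the same order of groups as TomloxA. Seed storage albumin 5 (Solyc08g080490.2), a protein store of the embryo, had 2557, 961 and 5783 FPKM in CK, ABA and NDGA fruits. An oleosin 1 entry (Solyc08g078160.2), an oil body protein, had 103, 82.2 and 310 FPKM. Of the 19 oleosin, cruciferin and storage albumin entries, 17 had values above 0 in ABA and CK, of which 15 were lower with ABA. Of these 17, 5 were at least 2-fold lower and 1 higher, and the median log2 fold change was −0.33. Among all expressed entries with a ratio, 10122 of 21442 were lower with ABA. At least 2-fold, 10.5% were lower and 6.70% higher, and the median was 0.04. All 18 of the set with values above 0 in NDGA and CK were higher with NDGA, 14 of them at least 2-fold. Their median log2 fold change was 1.28. Among all expressed entries with a ratio, 11495 of 21590 were higher with NDGA, 8.79% at least 2-fold, and the median was 0.03. A seed storage albumin 3 gene (Solyc07g064220.1), listed in 2 entries, was at 0 with ABA in both and at 0 in CK in 1 of them. The wider list, written by annotation text and including cupins and 2S albumin superfamily proteins, held 101 entries, and summed to 18380.5 FPKM in water-injected fruits, 9935 in ABA fruits and 53651 in NDGA fruits. Without the 2 entries of Solyc06g073660.2, the higher of which was listed at 0 in CK and ABA, the NDGA sum was 42120.0. Of its 66 expressed entries, 21 of the 62 with a ratio were at least 2-fold lower with ABA and 6 higher, and 37 of the 63 with a ratio were at least 2-fold higher with NDGA and 2 lower. Among all expressed entries 10.5% were lower and 6.70% higher with ABA, and 8.79% higher and 4.13% lower with NDGA. The light-harvesting and RuBisCO small subunit entries that mark green tissue also had this order, with sums of 534, 162 and 775 FPKM over 33 entries. The part of seed and green tissue RNA in the TomloxA and TomloxD values was not tested. The narrower set of 19 was chosen after the values were seen.

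**Figure D2:**
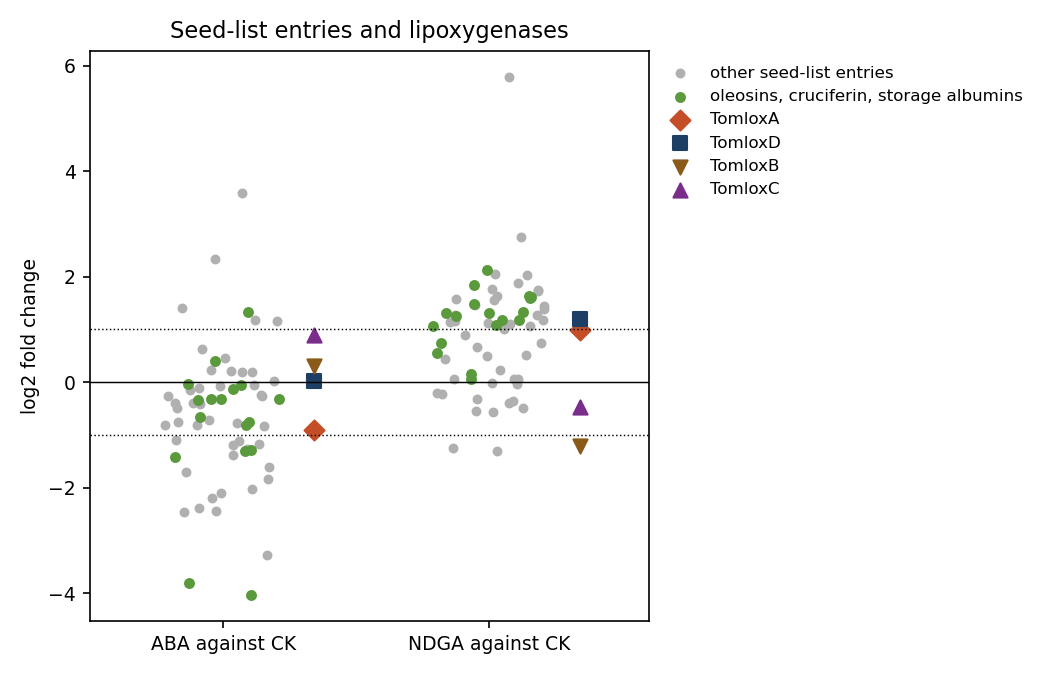
Log2 fold changes (vertical axis) of expressed seed-list entries, as small points, and of the 4 lipoxygenase members, as large symbols, for ABA against CK and NDGA against CK. Points are spread sideways for legibility and dotted lines mark 2-fold. With NDGA most seed-list entries lie above 0, as do TomloxA at 1.00 and TomloxD at 1.20, while TomloxB is at −1.21 and TomloxC at −0.47.

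TomloxD (Solyc03g122340.2, 13-lipoxygenase), on chromosome 3 from 64271709 to 64276163, was far below the other members. Its levels were 5.37, 5.44 and 12.3 FPKM in CK, ABA and NDGA fruits. ABA and CK fruits thus had nearly equal levels, with a log2 fold change of 0.02. With NDGA the log2 fold change was 1.20. In rank of FPKM among all entries TomloxD stood at 14139 in CK and 10540 with NDGA, whereas the other 5 members were among the first 2059 entries in every group.

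Counted by fold alone, 0 of the 6 genes differed at least 2-fold between ABA and CK. The background for that count was 9.59% of entries higher and 13.9% lower among those above 0 in both groups. Between NDGA and CK, TomloxD was at least 2-fold higher and TomloxB at least 2-fold lower, 1 of 6 in each direction, where 14.2% and 6.22% of entries passed the same bounds. Both of these comparisons use the same CK values. Directly between ABA and NDGA fruits, a comparison that does not use CK, all 6 genes differed at least 2-fold. TomloxB, TomloxC, HPL and ADH2 were higher with ABA by log2 values of 1.52, 1.36, 1.12 and 1.07. TomloxA and TomloxD were lower with ABA, at −1.90 and −1.18. The background was 10.1% of entries higher and 21.4% lower with ABA. Among abundant entries, taken after seeing the data as those with a mean of 100 FPKM or more, the range of 5 of the members, 13.9% were higher and 13.3% lower. The same bound gave 7.89% higher and 8.27% lower for ABA against CK, and 9.20% higher and 7.57% lower for NDGA against CK.

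**Figure D3:**
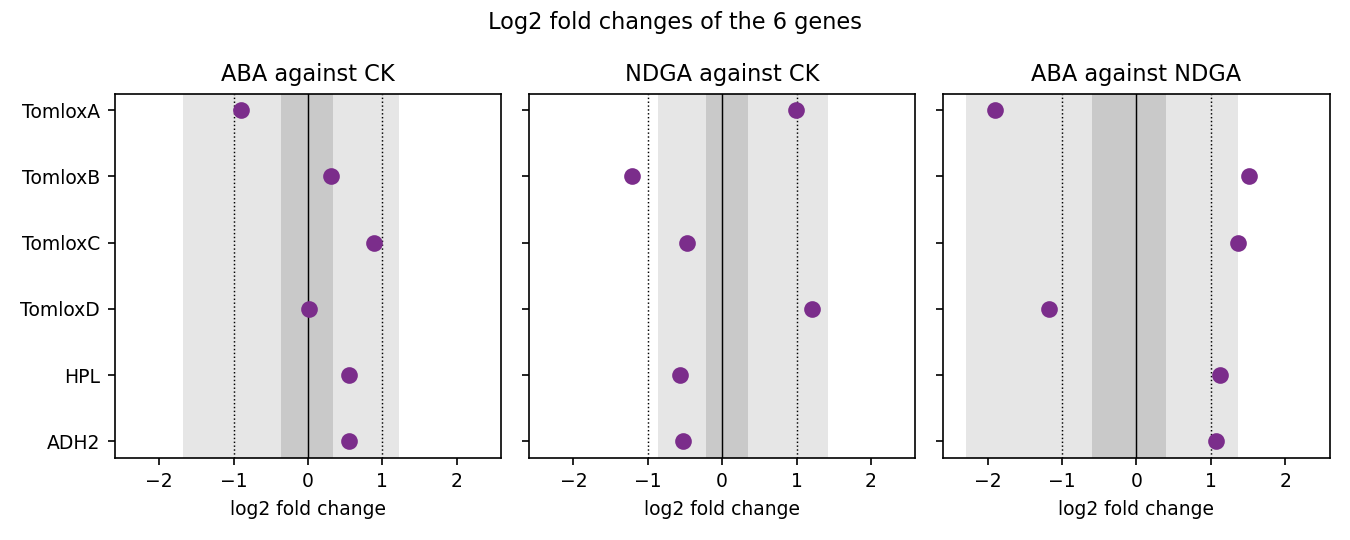
Log2 fold changes (horizontal axes) of the 6 genes in 3 comparisons, 1 point per gene. Dark grey spans the 25th to 75th and light grey the 5th to 95th percentile of all expressed entries, and dotted lines mark 2-fold. All 6 points lie within the dotted lines for ABA against CK and beyond them for ABA against NDGA.

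FPKM are per length, so the lipoxygenase levels can be added. The 4 genes summed to 2204, 2971 and 1407 FPKM in CK, ABA and NDGA fruits. TomloxB took 64.8%, 59.5% and 43.9% of that sum in the same order of groups. For TomloxC the shares of CK, ABA and NDGA fruits were 27.1%, 37.2% and 30.6%. TomloxA made up 7.88% in CK and 3.14% with ABA, against 24.7% with NDGA. TomloxB, the other 9-lipoxygenase, exceeded TomloxA 8.22-fold in CK, 19.0-fold in ABA and 1.78-fold in NDGA fruits. The 9-lipoxygenase pair together held 72.7% in CK, 62.6% in ABA and 68.6% in NDGA fruits. TomloxD stayed below 1% of the sum throughout, with its highest share, 0.877%, with NDGA. TomloxC exceeded TomloxD, the other 13-lipoxygenase, 111-fold in CK, 203-fold in ABA and 34.8-fold in NDGA fruits. In the order of levels over all 6 genes TomloxB came first and ADH2 second in CK and ABA, while in NDGA fruits ADH2 was above TomloxB. TomloxA was above HPL in CK and NDGA fruits and below it in ABA fruits. Whether neighbours in this order differ beyond their spread cannot be said without replicate values.

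**Figure D4:**
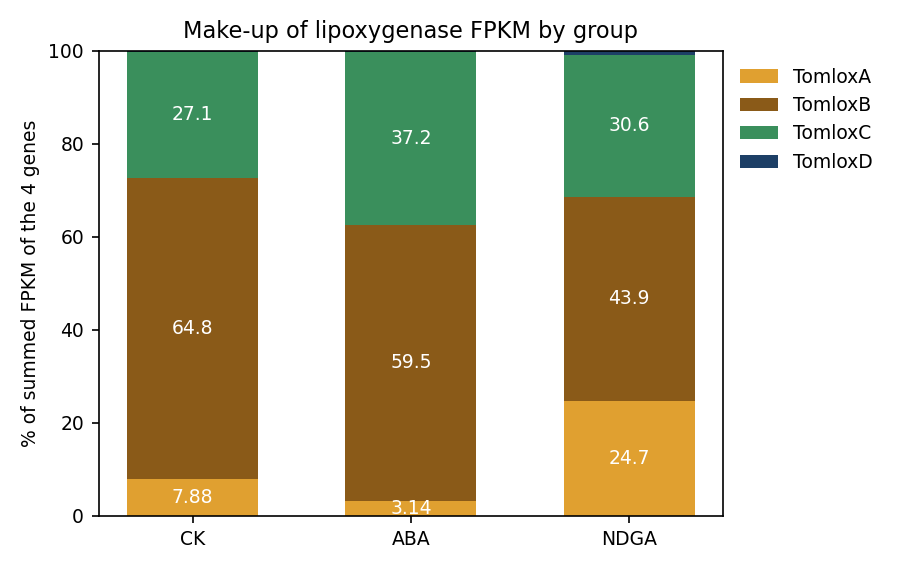
Share (vertical axis, percent of the summed FPKM of the 4 genes) of each lipoxygenase member in CK, ABA and NDGA fruits. The TomloxA share is 3.14% with ABA and 24.7% with NDGA, and that of TomloxC is highest with ABA, at 37.2%.

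In all, 16 entries were annotated as lipoxygenase, 11 of them expressed. The 4 members held most of the lipoxygenase FPKM, and all 16 entries together reached 2283, 3074 and 1460 FPKM in CK, ABA and NDGA fruits. Of the 11, 1 was at least 2-fold higher and 0 at least 2-fold lower with ABA, beside 6.70% and 10.5% of all expressed entries. Against CK, NDGA fruits had 1 at least 2-fold higher and 2 at least 2-fold lower, beside 8.79% and 4.13%. The higher one was the member TomloxD, and the lower ones were the member TomloxB and Solyc01g099150.2. Median log2 fold changes of the 11 were −0.13 with ABA and −0.29 with NDGA, where those of all expressed entries were 0.04 and 0.03. Over the 13 with values above 0 in both groups and no bound on level, the ABA median was −0.40.

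**Figure D5:**
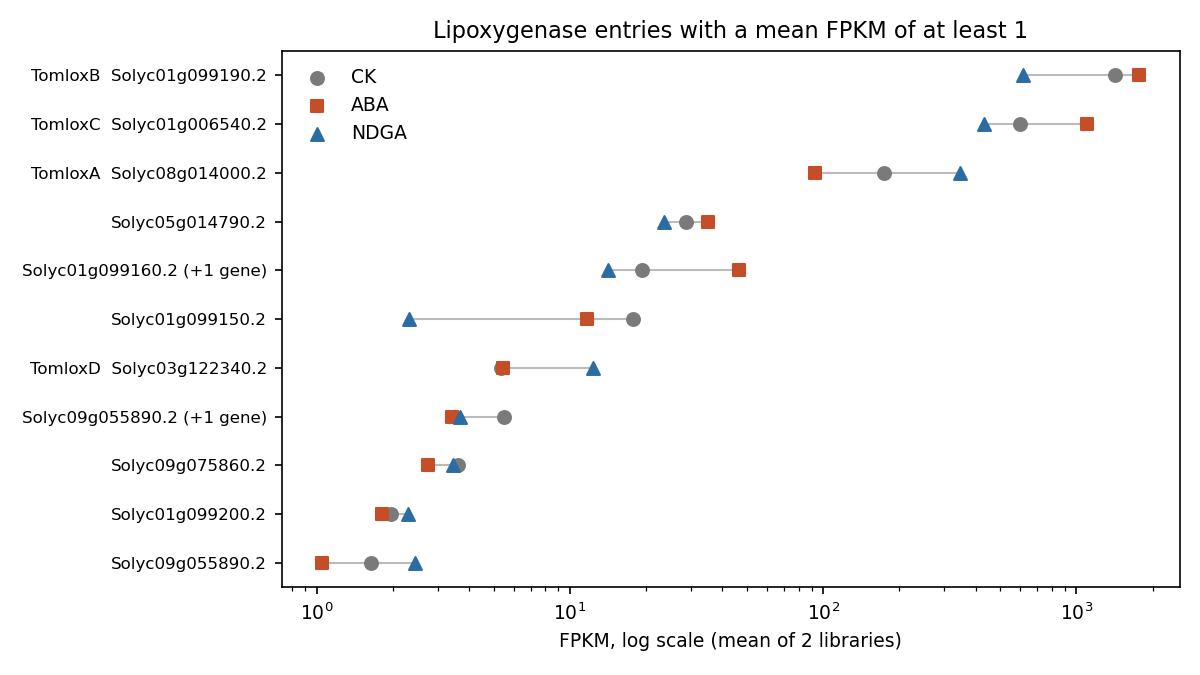
FPKM (horizontal axis, log scale) of the 11 expressed lipoxygenase entries. Each row is an entry, circles are CK, squares ABA and triangles NDGA, and the grey line joins lowest and highest. TomloxB, TomloxC and TomloxA have at least 93.2 FPKM in every group, and all other entries at most 46.6.

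TomloxB sits in a row of lipoxygenase genes on chromosome 1, where 6 entries lie within 49.2 kb from 81224469 to 81273647. TomloxB accounted for 97.3%, 96.7% and 97.0% of the FPKM of this row in CK, ABA and NDGA fruits. Just before it, 357 bp away, Solyc01g099180.2 was listed at 0 in CK and had 0.0494 FPKM in ABA fruits and 0.0578 in NDGA fruits. The locus that merges Solyc01g099160.2 and Solyc01g099170.2 had 19.3, 46.6 and 14.1 FPKM in CK, ABA and NDGA fruits. This locus was the 1 entry of the 11 at least 2-fold higher with ABA, at a log2 fold change of 1.27. At the start of the row Solyc01g099150.2 had 17.7, 11.7 and 2.32 FPKM in CK, ABA and NDGA fruits. Its log2 fold change with NDGA, −2.93, was the lowest of the 11 entries. Behind TomloxB, Solyc01g099200.2 was near 2 FPKM in all groups. Reads of such neighbouring copies can be hard to assign, and how the authors treated reads that map to several copies is not given in the sources used here. RefSeq also places a gene named TomloxE before TomloxB, and which of the listed identifiers it corresponds to was not determined here.

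TomloxC likewise has a copy nearby. Solyc01g006560.2, annotated as lipoxygenase 2 and separated from TomloxC by 1 receptor-like protein gene, was at 0.102 FPKM in CK and listed at 0 in both treatments. Of the other lipoxygenase entries, Solyc05g014790.2 had 28.7, 35.2 and 23.6 FPKM in CK, ABA and NDGA fruits, the order of TomloxC at a far lower level. Solyc09g075860.2 stayed between 2.74 and 3.62 FPKM. Solyc09g055890.2 was listed alone, at 1.64 FPKM in CK, and again merged with Solyc09g055900.2, at 5.51 FPKM in CK. None of the 6 members overlapped another entry of the table.

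Besides the C6 route, 13-hydroperoxides enter the jasmonate pathway through allene oxide synthase, allene oxide cyclase and 12-oxophytodienoate reductase. The more abundant allene oxide synthase (Solyc11g069800.1) had 20.8, 20.3 and 13.2 FPKM in CK, ABA and NDGA fruits. Its locus of 51371453 to 51616365 on chromosome 11 is far wider than a gene. A second allene oxide synthase (Solyc04g079730.1) had 0.728, 0.736 and 1.61 FPKM, the order of TomloxD. Allene oxide cyclase 3 (Solyc02g085730.2), the only entry for this step, had 15.8, 16.8 and 12.3 FPKM in CK, ABA and NDGA fruits. The oxophytodienoate reductase 3 gene (Solyc07g007870.2), the isoform that acts in jasmonate synthesis, was at 10.0, 3.41 and 12.3 FPKM in CK, ABA and NDGA fruits. Its log2 fold change with ABA was −1.55. Of 5 expressed reductase entries, the ABA level was at least 2-fold lower in 2 and 0 were higher, beside 10.5% and 6.70% of all expressed entries. With NDGA 0 of 5 were at least 2-fold higher or lower, beside 8.79% and 4.13%. The other entry at least 2-fold lower with ABA, Solyc10g086220.1, had 3.19, 0.689 and 5.32 FPKM in CK, ABA and NDGA fruits, and its locus of 557590 bp is also far wider than a gene. The third and most abundant reductase gene, Solyc11g032130.1, was listed in 2 entries with log2 fold changes between −0.14 and 0.64. The last of the 5, Solyc01g103390.2, had 1.17, 1.05 and 1.55 FPKM. The HPL transcript, at 145 FPKM in CK, was above the 20.8 FPKM listed for the wide allene oxide synthase locus.

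ADH2 dominated the entries annotated as alcohol dehydrogenase, with 1082 of 1765 summed FPKM in CK, 1582 of 2204 with ABA and 751 of 1217 with NDGA. The next, a long-chain fatty alcohol dehydrogenase (Solyc08g005630.2), had 151, 300.2 and 130.1 FPKM in CK, ABA and NDGA fruits. Its log2 fold change with ABA was 0.99. The zinc-binding genes Solyc03g095360.2 and Solyc05g056540.2 had 82.7 and 51.8 FPKM in CK and log2 fold changes with ABA of 0.25 and 0.43. Solyc09g037040.1, annotated as alcohol dehydrogenase 1 like ADH2, was at 227 FPKM in CK and listed at 0 in both treatments. Its locus spans 30193 bp, and its value is part of the CK sum above but adds nothing to the other sums. Among the 13 expressed entries with values above 0 in every group, ABA left 0 at least 2-fold higher and 1 lower, and NDGA 2 higher and 0 lower. The shares of all expressed entries were 6.70% and 10.5% with ABA and 8.79% and 4.13% with NDGA. The medians of the 13 were 0.08 and −0.00 on the log2 scale.

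Likeness to each member was measured as the distance between the pairs of log2 fold changes, over the 3 group means, among 9985 single-gene entries averaging 10 FPKM or more. The nearest to TomloxC was zeta-carotene desaturase (Solyc01g097810.2), an enzyme of lycopene synthesis, at a distance of 0.01. Its levels were 58.8, 108 and 42.2 FPKM in CK, ABA and NDGA fruits. Second was Solyc01g106310.2, with 217, 398 and 156 FPKM. Nearest to TomloxB were the calcium-dependent phosphotriesterase Solyc10g079610.1, at 0.01, and the RbcX chaperonin-like gene Solyc11g065740.1, at 0.04. TomloxD had the hydroxysteroid dehydrogenase 1 gene Solyc06g072670.2, at 0.01, and the oxidoreductase gene Solyc09g015070.2, at 0.04. For TomloxA these were the RING/U-box gene Solyc00g136260.1, at 0.03, and Solyc08g005560.2, at 0.05. HPL was nearest to the DUF966 gene Solyc06g030470.2 and the copper chaperone Solyc11g007200.1. ADH2 was nearest to Solyc11g012890.1 and the ribonucleotide reductase 2A gene Solyc01g080210.2. Patterns like those of HPL and ADH2 were frequent, with 351 and 408 entries within a distance of 0.25, against 130 for TomloxC, 36 for TomloxA, 33 for TomloxD and 23 for TomloxB.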

How the data were processed

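RNA-seq was performed on 6 pericarp libraries, 2 for each of CK, ABA and NDGA. Per the methods and the submitters' processing notes, clean reads were aligned to SL2.40 (ITAG2.3) with TopHat2 2.0.9. The authors computed FPKM with Cufflinks 2.1.1 and averaged both libraries of a group, and the deposited table of all loci holds these averages. Smaller tables of TFs and of ABA and ethylene genes contain none of the 6 members and were not used, nor were their columns of the authors' calls. Calls with P values in the study's supplementary tables were not used here either. Depth per value is unknown.

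Log2 fold changes were ratios of the deposited values without a pseudocount, with no ratio where a group is listed at 0. Lists were taken from KO numbers, KEGG terms and annotation text, and their counts and medians used entries averaging 1 FPKM or more. The genes named are the members, the lipoxygenase, CYP74, cyclase and reductase entries of at least that level, the highest 5 alcohol dehydrogenases, the highest 3 desaturase, pyruvate decarboxylase and carboxylesterase entries, the nearest 2 in pattern for each member and the markers. Solyc01g099180.2, Solyc01g006560.2 and the seed and lipase genes named were chosen afterwards, with values in view. Members and lists were chosen with earlier results of these data known. The design assumed 1 value per group and no test. Alternatives were pseudocounts of 0.1 and 1, rescaling to a median log2 ratio of 0, a log2 bound of 1.5, bounds on mean FPKM and single-gene entries. A value was taken as moved at 0.25 log2 or 5 percentage points. Counting was tested on simulated data. Python 3.11.15, numpy 2.4.6, pandas 2.3.3 and matplotlib 3.10.9 were used.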

Additional observations from a re-analysis of the deposited data

How the results depend on the processing

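No paired analysis was possible because the deposited values are means of the 2 libraries of a group, and for the same reason no replicate could be left out. Under pseudocounts of 0.1 and 1 and rescaling, 54 log2 values of the members were recomputed, 0 of them moved by 0.25 or more, and the largest shift was 0.13. In 1 case, TomloxD with ABA under rescaling, the sign changed around a value of 0.02. A log2 bound of 1.5 left 0 members higher and 0 lower with NDGA, and 1 higher and 1 lower for ABA against NDGA. At that bound 2301 of 27382 entries were higher and 975 lower with NDGA. For ABA against NDGA, 1573 of 27022 entries were higher and 3894 lower. A mean FPKM of at least 100, a setting chosen after seeing the data, removes TomloxD, which left 0 members higher with NDGA and 1 lower for ABA against NDGA. Over all entries 26 of 42 recomputed counts moved by over 1.5 times. A pseudocount of 1 moved them most among the planned settings. The entries at least 2-fold higher with ABA went from 2548 to 1097 and the lower ones from 3689 to 1446. With NDGA they went from 3885 to 1379 and from 1703 to 578, and for ABA against NDGA from 2718 to 1465 and from 5794 to 2882. Rescaling subtracts 0.04 from log2 values with ABA and 0.03 from those with NDGA. Of 120 list medians 7 moved.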

Other observations

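The fatty acid desaturase 2 gene Solyc01g006430.2, which makes linoleic acid, had 132, 147 and 189.9 FPKM in CK, ABA and NDGA fruits. The desaturase 8 gene Solyc06g051400.2, of the linolenic acid step, had 30.8, 35.2 and 28.3 FPKM. The highest desaturase value, 1624 FPKM in CK at Solyc12g100260.1, belongs to a locus of 166 bp that was listed at 0 in both treatments.

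Of 3 expressed entries for pyruvate decarboxylase, an enzyme that forms acetaldehyde, 0 differed at least 2-fold from CK with ABA or with NDGA. The shares of all expressed entries past that bound were 6.70% higher and 10.5% lower with ABA, and 8.79% and 4.13% with NDGA. Solyc10g076510.1 had 148, 166 and 102 FPKM in CK, ABA and NDGA fruits. For Solyc02g077240.2 the levels were 109.5, 110.6 and 84.5, and for Solyc02g091100.2 they were 91.0, 137 and 67.8. The carboxylesterase gene Solyc11g012070.1, in 2 entries, had 17.7 and 10.5 FPKM in CK, 11.8 and 7.66 with ABA, and 15.0 and 8.88 with NDGA.

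The lipase list, taken by annotation text, includes PLAT/LH2 family proteins annotated as lipase/lipooxygenase. These are not among the 16 lipoxygenase entries above. Among 70 expressed entries of the lipase list with values above 0 in CK and ABA, 4 were at least 2-fold higher with ABA and 16 lower. These were 5.71% and 22.9%, where 6.70% and 10.5% of all expressed entries were higher and lower. With NDGA 11 of 71 were higher and 7 lower, or 15.5% and 9.86%, beside 8.79% and 4.13% of all expressed entries. Entries are not separate genes, as some genes are listed more than once. Both entries of the GDSL-like lipase gene Solyc03g111550.2 are among the 7 lower. The GDSL lipase gene Solyc07g049440.2 had 220.2, 16.5 and 130.9 FPKM in CK, ABA and NDGA fruits. Of 21 expressed green tissue marker entries, 15 were at least 2-fold lower and 1 higher with ABA, beside 10.5% and 6.70% of all expressed entries. With NDGA 4 were at least 2-fold higher and 0 lower, beside 8.79% and 4.13%.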
